A study of Mus musculus with 49 samples.

Results

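The response of mouse embryonic stem (mES) cells to 4 h of p53 activation in the absence of Trim24 was measured by RNA sequencing in 6 of the 49 libraries of the series. The members were fixed by the library labels: 3 libraries of Trim24 degron cells that received 500 nM dTAG13 and 1 µM doxorubicin for the same 4 h, set against 3 libraries of the same line at 0 h with neither compound. All 20489 genes of the table were considered and 16014 passed a filter on low values. In every group of this line the endogenous Trim24 gene carries the FKBP12(F36V) degron and a V5 tag at its C terminus, in ES cells of strain 129S6/SvEvTac grown with serum and LIF on gelatin. The groups called here degraded and activated cells and uninduced cells at 0 h therefore share the tagged allele. They differ by both compounds at once. Per the methods the compounds came with a change to fresh medium, and this time course has no 4 h group without them. The effects of doxorubicin, of Trim24 loss, and of fresh medium and 4 h of culture cannot be told apart in that comparison alone. Activated cells that kept Trim24 (1 µM doxorubicin for 4 h, 3 libraries) were sequenced in the same time course, and are set beside it below. Further libraries used for comparison were degraded and activated cells at 2, 8 and 12 h (3 each). Wild-type ES cells had p53 activated with 1 µM doxorubicin, taken as 4 h, or basal p53 (2 each). Uninduced degron cells had 500 nM dTAG13, taken as 4 h, or neither compound (3 each). A second experiment held 4 degraded and activated and 4 activated libraries of the degron line at 4 h.

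p53 is a transcription factor that is held at a low level by the ubiquitin ligase Mdm2 and accumulates when DNA is damaged. It binds a response element made of a pair of adjacent decamers and raises genes of cell cycle arrest, cell death and repair, and it raises Mdm2 itself, which closes a feedback loop. Doxorubicin poisons topoisomerase II and so breaks DNA. Trim24 is a chromatin reader and ubiquitin ligase of the TIF1 family that binds p53, and dTAG13 bridges the degron tag to a cellular ubiquitin ligase, so that the tagged protein is destroyed while its mRNA is still made. In ES cells, p53 activation is also known to lower pluripotency genes such as Nanog.

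The libraries held 19320096, 19452709 and 21431767 reads over genes in degraded and activated cells, against 21635788, 21852262 and 18426252 in uninduced cells at 0 h, so that 3 reads correspond to 0.141 to 0.175 CPM (reads of a gene scaled to a common library total). Libraries of 1 group correlated at 0.996 to 0.997 across genes and libraries of different groups at 0.963 to 0.966, a description over genes that are not independent. Of 8 defining ES cell markers all were expressed in every library. Their summed level was 2540 to 2615 CPM in degraded and activated cells, against 4913 to 4977 CPM in uninduced cells at 0 h, and 6 of the 8 were lower. Of 8 fibroblast or feeder markers 4 passed the filter and 1 (Col1a1) was higher, while their summed level was 17.0 to 19.4 CPM in degraded and activated cells and 17.9 to 21 CPM in uninduced cells. Lum, a defining fibroblast gene, had no read at 0 h and 0.141 to 0.158 CPM in degraded and activated cells. Every other marker of that list had reads at 0 h, with Thy1 the highest at a mean of 15.4 CPM. More genes had a read in degraded and activated cells (18034 to 18603) than in uninduced cells at 0 h (16724 to 16899).

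Trim24 mRNA itself stood at 138, 145 and 141 CPM in degraded and activated cells, against 213, 207 and 212 CPM in uninduced cells at 0 h. That is a log2 fold change of -0.57 (SE 0.0473) by limma, and the tag acts on protein, so RNA does not check the degradation. Trp53, the gene of p53, had 243, 218 and 236 CPM against 278, 309 and 289 CPM, a log2 fold change of -0.33 that also missed the fold threshold.

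A gene was called changed when the limma adjusted p was under 0.01 and the log2 fold change at least 0.75 in size. By this rule 3351 of the 16014 genes tested changed (20.9%), 2223 of them higher in degraded and activated cells (13.9%) and 1128 lower (7.04%). The median log2 fold change was 1.27 among higher genes and -1.03 among lower genes, beside 0.01 over all genes tested. Large changes were mostly gains: 453 genes were higher by 2 or more on the log2 scale and 116 by 3 or more, whereas 73 were lower by 2 or more and 7 by 3 or more. With quantile normalization, which forces the same distribution on every library, the split was 1644 higher and 1609 lower. Over all genes tested, the libraries of the groups did not overlap for 5288 genes with degraded and activated cells above (33.0%) and 5166 with them below (32.3%), and among the called genes, where the call itself nearly assures it, for 2217 of the higher and 1127 of the lower genes. All log2 fold changes are on the scale of CPM with a prior count of 8 reads, which understates the change of genes with few reads. Replicates are described as biological, but nothing ties them to separate days or thaws, so p-values measure the spread between these libraries.

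**Figure D1:**
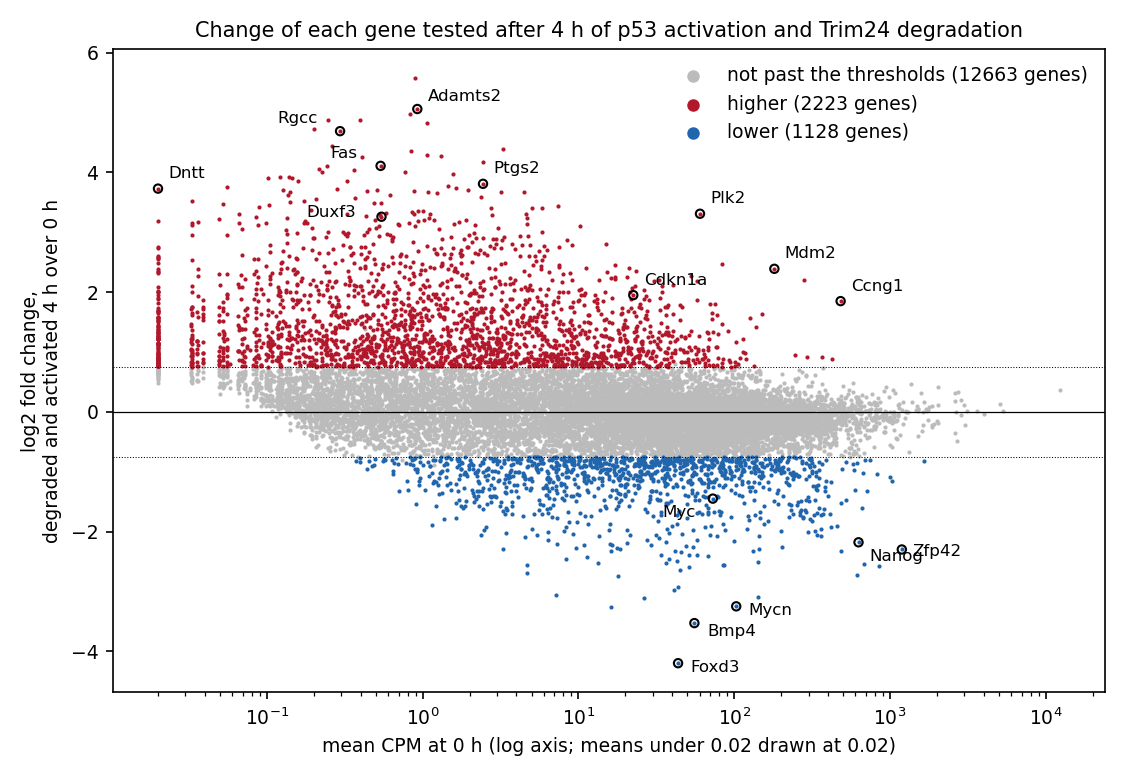
Each point is 1 of 16014 genes, with its mean level at 0 h on the x axis (CPM, log axis, means under 0.02 drawn at 0.02) and its log2 fold change, degraded and activated cells at 4 h over 0 h, on the y axis; dotted lines mark 0.75 and -0.75. The 2223 higher genes (red) spread over low starting levels, and Foxd3 (-4.20) is the lowest of the labelled genes among the 1128 lower genes (blue).

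Median levels at 0 h were 1.11 CPM for higher genes and 25.3 CPM for lower genes, beside 17.1 CPM over all genes tested. The 0 h level enters the fold change, the call and the filter, so this difference was partly fixed by how the genes were chosen. Among the higher genes the median level was 4.57 CPM in degraded and activated cells and 1.11 CPM in uninduced cells at 0 h, and 48.1% were under 1 CPM at 0 h, beside 20% of all genes tested. Together the higher genes held 48126 to 48445 CPM in the degraded and activated libraries, against 17647 to 17874 CPM at 0 h. The lower genes held 36455 to 37458 CPM in the degraded and activated libraries, against 81694 to 87936 CPM at 0 h. CPM are shares of each library, so a fall in share and a fall in RNA per cell cannot be told apart.

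Some direct p53 targets of each role rose, and most of the listed ones were not called. The counts of each list below stand beside 13.9% higher and 7.04% lower over all genes tested. Mdm2, the ligase that returns p53 to a low level, had 921, 994 and 941 CPM in degraded and activated cells, against 186, 177 and 180.3 CPM at 0 h (log2 fold change 2.39, SE 0.0453, limma adjusted p = 1.26e-18). Cdkn1a, the p21 inhibitor of cyclin-dependent kinases, had 93.0, 80.7 and 89.2 CPM against 20.9, 23.4 and 23.2 CPM (1.95, SE 0.0688). No library of one group reached the other for either gene. Of 11 p53 feedback regulators 4 were higher and none lower: Mdm2, the phosphatase gene Ppm1d (0.96), and the cyclins Ccng1 (1.85) and Ccng2 (0.83). Mdm4, the partner of Mdm2, had a log2 fold change of 0.37 and was not called.

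Among 14 p53 targets of cell cycle arrest 5 rose and 2 fell, beside 13.9% higher and 7.04% lower over all genes tested. Plk2, a kinase of the damage response, had 602, 606 and 598 CPM in degraded and activated cells and 63.6, 58.8 and 58.5 CPM at 0 h, a log2 fold change of 3.31. Btg2, an antiproliferative gene, rose by 2.47 on the log2 scale, and Fbxw7, the substrate receptor that targets cyclin E, by 2.18. The G2 arrest gene Rprm stood at 7.93, 9.40 and 8.25 CPM against 1.5, 2.01 and 1.63 CPM. Gadd45g and Plk3 fell, with log2 fold changes of -0.95 and -0.85.

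The cell death targets gave 7 higher and 1 lower of 15 tested, beside 13.9% higher and 7.04% lower over all genes tested. Fas, a death receptor, was the farthest: 13.9, 15.1 and 15.1 CPM in degraded and activated cells against 0.299, 0.785 and 0.525 CPM in uninduced cells at 0 h (log2 fold change 4.11, SE 0.172). Apaf1, the scaffold of the apoptosome, had 252, 257 and 253 CPM against 55.5, 48.5 and 53.4 CPM, and the stress protein gene Trp53inp1 1241, 1369 and 1294 CPM against 281, 256 and 310.4 CPM. Log2 fold changes were 2.12 for Pmaip1 (Noxa) and 1.29 for Bbc3 (Puma), which encode BH3-only activators of apoptosis, 1.5 for Pidd1 and 1.26 for Perp. Bid, another BH3-only gene, fell (-0.77).

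Of 13 repair targets 3 rose, beside 13.9% of all genes tested, namely the nuclease gene Ercc5 (1.79), the translesion polymerase gene Polk (1.70) and Rrm2b, a ribonucleotide reductase subunit (1.07), while Cgas, the cytosolic DNA sensor, fell (-1.27). Of 21 genes of double-strand break repair none was called by limma or by limma-voom on reads, and 9 had an unadjusted p under 0.05. Metabolic targets gave 7 higher and none lower of 13, led by Ddit4, an mTORC1 inhibitor (112, 107 and 103 CPM against 14.6, 16.3 and 14.4 CPM, log2 fold change 2.80), the phosphatidate phosphatase Lpin1 (2.04) and Sesn2, a leucine sensor (1.30). In the p53 family, Trp73 rose by 3.31 on the log2 scale, with 54.7, 42.1 and 50.6 CPM against 4.54, 4.42 and 4.85 CPM. Of the 4 TIF1 genes, Trim66 was the 1 called: 13.2, 14.1 and 13.5 CPM against 1.25, 1.03 and 0.759 CPM (3.36).

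**Figure D2:**
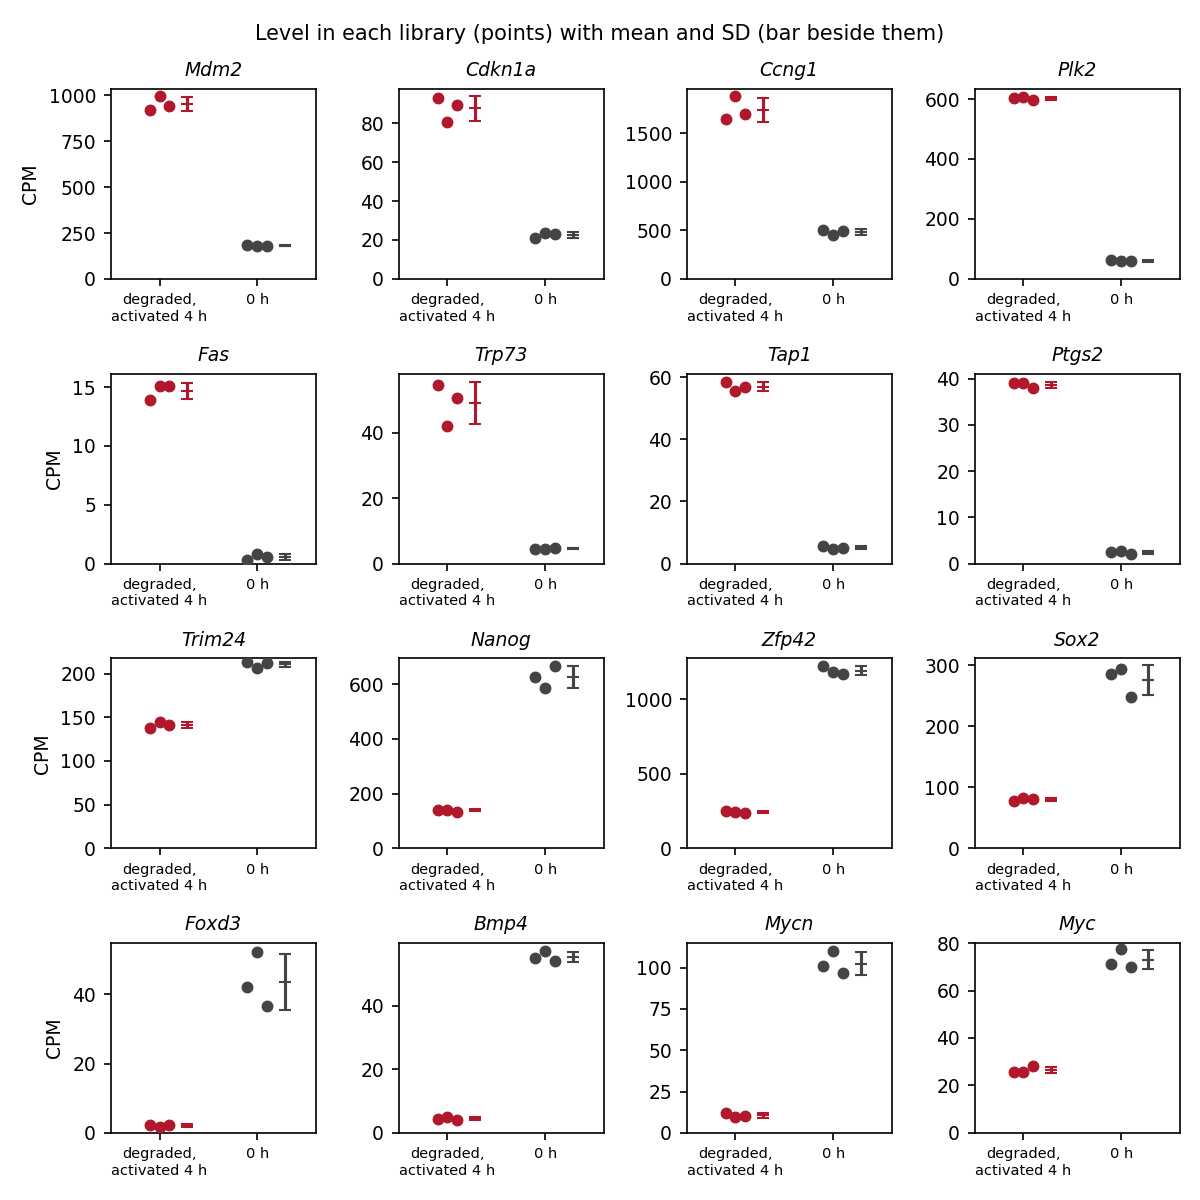
Level of 16 genes in each library (CPM, axis from 0), with the 3 degraded and activated libraries at 4 h left of the 3 libraries at 0 h, and the mean with 1 SD beside the points. Mdm2 lay at 921 to 994 CPM against 177 to 186 CPM and Nanog at 134 to 140.5 CPM against 588 to 669 CPM, with no overlap.

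Promoters of some rising genes are shown with their matches to the p53 response element. Binding of p53 to these matches was not tested here. Promoter windows of 300 bases (250 before the start site and 50 after) were taken from RefSeq for build GRCm38.p6. They were searched on both strands for the p53 response element as abutting decamers with at most 2 mismatches to the known consensus and none at the core C and G. Hits of 3 genes follow in full, 5′ to 3′ on the strand of the gene, with the element in capitals, and elements of 2 further genes alone. The windows lie at chr17:29090729-29091028 (Cdkn1a, plus strand), chr11:40755237-40755536 (Ccng1, minus strand) and chr4:154097124-154097423 (Trp73, minus strand), and those of the lone elements at chr7:27396149-27396448 (Sptbn4, minus strand) and chr19:47138245-47138544 (Calhm2, minus strand).
Cdkn1a: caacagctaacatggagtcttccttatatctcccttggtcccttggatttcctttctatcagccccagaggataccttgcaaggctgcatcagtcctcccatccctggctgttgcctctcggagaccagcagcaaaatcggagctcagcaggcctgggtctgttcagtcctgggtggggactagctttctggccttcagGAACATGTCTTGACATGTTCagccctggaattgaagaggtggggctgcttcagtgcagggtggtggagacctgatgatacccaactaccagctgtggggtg
Ccng1: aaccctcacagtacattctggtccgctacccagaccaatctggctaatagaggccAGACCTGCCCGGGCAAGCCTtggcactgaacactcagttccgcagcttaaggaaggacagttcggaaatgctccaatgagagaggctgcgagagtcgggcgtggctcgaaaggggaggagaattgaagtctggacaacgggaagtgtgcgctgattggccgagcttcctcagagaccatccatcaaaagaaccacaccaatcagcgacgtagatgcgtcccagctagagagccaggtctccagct
Trp73: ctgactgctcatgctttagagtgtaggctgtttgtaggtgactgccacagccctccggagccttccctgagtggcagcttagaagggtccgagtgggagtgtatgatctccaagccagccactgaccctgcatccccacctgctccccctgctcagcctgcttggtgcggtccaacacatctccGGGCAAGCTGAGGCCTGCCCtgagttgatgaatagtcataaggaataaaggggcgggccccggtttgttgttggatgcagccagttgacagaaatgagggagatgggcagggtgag
Sptbn4: GAGCTAGCCTAGGCTAGTCT
Calhm2: GGGCAAGCCTAGGCAAGATC

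RefSeq holds more than 1 start site for some genes, and distances are to the start site of the window given. The element began 51 bases before that site in Cdkn1a and 195 before it in Ccng1, with 1 mismatch each. In Trp73 it began 66 bases before the start site, with 2 mismatches. Sptbn4, a spectrin gene, held the 1 element without a mismatch, 55 bases before the start, and was higher with 66.4, 58.7 and 67.3 CPM in degraded and activated cells against 38.7, 42.5 and 32.2 CPM at 0 h (log2 fold change 0.76). Without the first or the third degraded and activated library its log2 fold change was 0.74 or 0.73, and without the third 0 h library 0.65, all under the fold threshold. Calhm2, a channel gene, had 13.8, 11.6 and 12.3 CPM against 5.48, 7.95 and 6.19 CPM (0.92), with 1 mismatch at 176 bases before the start. An element was present in 17 of 2181 promoters of higher genes (0.779%), in 1 of 1126 promoters of lower genes and in 107 of all 32851 promoters of the table (0.326%). Promoters were matched for 1738 of the 2223 higher and 844 of the 1128 lower genes, under 80% of each, so a comparison of these shares is void and they are a description only. An absent match says only that these letters are not in the window.

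The pluripotency network fell. Of 15 naive pluripotency genes 9 were lower and none higher (median log2 fold change -1.10), and of 9 core genes 6 were lower and none higher (-1.32), beside 13.9% higher and 7.04% lower over all genes. Nanog had 140.5, 140.1 and 134 CPM in degraded and activated cells and 626, 588 and 669 CPM in uninduced cells at 0 h (log2 fold change -2.18, SE 0.0505). Zfp42 (Rex1), a naive marker, had 246, 245 and 235 CPM against 1225, 1179.8 and 1168 CPM. Klf2 (-2.51), Prdm14 (-2.35), Sox2 (-1.77), Fgf4 (-1.49), Sall4 (-1.40) and Esrrb (-1.18), all regulators or ligands of the ES cell state, fell as well. The forkhead factor Foxd3 fell the most of all genes whose groups did not overlap, to 2.36, 1.58 and 2.2 CPM against 42.0, 52.3 and 36.5 CPM at 0 h (-4.20, SE 0.134). Pou5f1 (Oct4) had 939, 853 and 895 CPM against 976, 1042 and 944 CPM, a log2 fold change of -0.14 that was not called.

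Genes of other embryonic states were called in both directions, beside 13.9% higher and 7.04% lower over all genes tested. In the short trophoblast and neuroectoderm lists the number higher was near that share. Of 11 formative and primed genes 5 were lower, among them Otx2 (2.31, 2.96 and 3.02 CPM in degraded and activated cells against 26.9, 26.9 and 25.6 CPM at 0 h, log2 fold change -3.11) and Zic2 (-3.06), and 1, the ligand gene Nodal, was higher (0.98). Primitive endoderm gave 5 lower and none higher of 13, with Sox17 at -1.70 and Gata4 at -1.69. Trophoblast genes gave 2 higher (Krt7 2.83, Gcm1 1.77) and 3 lower of 13, mesoderm and primitive streak 3 higher (Wnt3 3.55, Mesp1 2.74, Wnt3a 1.49) and 4 lower of 11, and neuroectoderm 1 higher (Neurod1 2.79) and 1 lower (Pax6 -2.03) of 7. Of 15 two-cell-like genes only Duxf3, a gene of the Dux family, was called, with 8.29, 8.08 and 8.35 CPM against 0.498, 0.491 and 0.642 CPM. Reads of such repeated genes can be split among copies, so its level is uncertain.

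FGF signaling feedback, which reports ERK activity in ES cells, was lower in 12 of 15 genes and higher in none (median log2 fold change -0.90). Over all genes tested 7.04% were lower and 13.9% higher. Spry4, an ERK pathway inhibitor, had 18.1, 14.8 and 16.6 CPM in degraded and activated cells against 131, 156 and 141 CPM at 0 h (-3.09, SE 0.0762). Fgf15 (-3.26), Spry2 (-2.14) and Fgf17 (-2.05) fell too. In the BMP, Nodal and TGF-beta list 7 of 16 fell and 3 rose. Bmp4, a ligand that sustains self-renewal, was at 4.41, 4.96 and 4.06 CPM against 55.0, 57.2 and 54.3 CPM (-3.53), and the BMP targets Id3 and Id1 at -2.97 and -1.88. Lefty1 (-1.64) and Lefty2 (-1.6), inhibitors and targets of Nodal, fell while Bmp7 (2.09) and Gdf15 (1.57) rose. MYC network genes gave 5 lower and 2 higher of 10: Mycn (-3.25), Myc (-1.45) and their partner Max (-1.01) fell, and the antagonists Mxd1 (1.74) and Mxd4 (1.37) rose.

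The list of Wnt ligands, receptors and targets gave 9 higher and 4 lower of 17 genes, beside 13.9% and 7.04% over all genes tested. Wnt9a rose to 28.4, 27.3 and 26.5 CPM in degraded and activated cells, against 1.15, 1.18 and 0.876 CPM at 0 h (4.29), and Wnt3 and the receptor gene Fzd1 by 3.55 and 2.89 on the log2 scale. Axin2, a target of canonical Wnt signaling, fell to 4.88, 4.28 and 5.38 CPM against 21.2, 22.6 and 20.1 CPM (-2.06). In the Notch list 6 of 13 rose and 3 fell. The ligand gene Dll1 had 12.7, 13.3 and 13.3 CPM against 0.698, 1.13 and 1.46 CPM (3.24), and the targets Nrarp (1.96) and Hey2 (1.59) rose, while Hes1 (-1.36) and Lfng (-1.74) fell.

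Inflammation genes gave 9 higher and none lower of 17, beside 13.9% higher and 7.04% lower over all genes tested. Ptgs2, the inducible cyclooxygenase, had 39.0, 39.0 and 38.0 CPM in degraded and activated cells and 2.59, 2.70 and 2.04 CPM at 0 h (log2 fold change 3.81, SE 0.105). Cxcl10, a chemokine, rose by 2.75, Csf1 by 2.06 and Lif by 1.87, whereas Il1a, Il1b and Cxcl1 were called at mean levels of 0.354, 0.475 and 0.379 CPM, a few reads per library. Antigen presentation gave 5 higher and none lower of 13, led by the peptide transporter Tap1 (58.4, 55.5 and 56.7 CPM against 5.53, 4.56 and 5.02 CPM, 3.41) and Nlrc5, the activator of MHC class I genes (2.65). Interferon-stimulated genes gave 2 higher, near the 13.9% of all genes tested, and 3 lower of 13, with the factor Irf1 at -1.41. Prostanoid genes gave 5 higher of 15, Ptgs2 included, and none lower.

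Of 21 immediate early genes 6 rose and 6 fell, beside 13.9% higher and 7.04% lower over all genes tested. Fos had 22.1, 19.7 and 19.6 CPM in degraded and activated cells against 1.89, 2.55 and 2.92 CPM (2.90), and Fosl1 and Jun rose by 2.38 and 1.12 on the log2 scale, while Ier3 (-1.69), Jund (-1.32) and Ier2 (-1.26) fell. Stress lists were mixed: 5 higher and 3 lower of 17 for ATF4 and the unfolded protein response, with Vldlr at 1.98 and Xbp1 at -1.83. Of 13 heat shock genes 2 were higher (Hspa1a 1.34, Hspa1b 0.76) and 1 lower, near the shares over all genes tested (13.9% and 7.04%). Hspa1b lost its call with median centring (0.71), without the third degraded and activated library (0.74) and without the third 0 h library (0.72). Hspa1a and Hspa1b are near-identical copies whose reads can be exchanged.

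Proliferation lists gave few calls, with small falls in many members. Of 22 G1/S genes 2 rose and 3 fell (median -0.14), and of 24 mitosis genes Plk1 (-1.11) and Aurka (-1.10) fell (median -0.26). Over all genes tested 13.9% were higher and 7.04% lower, so the number of mitosis genes called lower was near that share. At an unadjusted p under 0.05 in limma, 13 G1/S genes were lower and 4 higher. By the same measure 19 mitosis genes were lower and none higher. Ribosomal protein genes and cholesterol synthesis genes gave no call of 21 and 17 tested, with medians of 0.05 and -0.01, and with 9 and 8 genes at an unadjusted p under 0.05 in limma. Limma-voom on reads called none of the ribosomal protein genes and 1 of the cholesterol genes. Housekeeping genes gave no call of 12 with either tool, with 9 at an unadjusted p under 0.05. Polycomb and DNA methylation genes gave 3 lower and 1 higher of 15, the dioxygenases Tet2 (93.6, 87.4 and 91.1 CPM against 278, 285 and 289 CPM, -1.64) and Tet3 (1.77) on opposite sides.

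**Figure D3:**
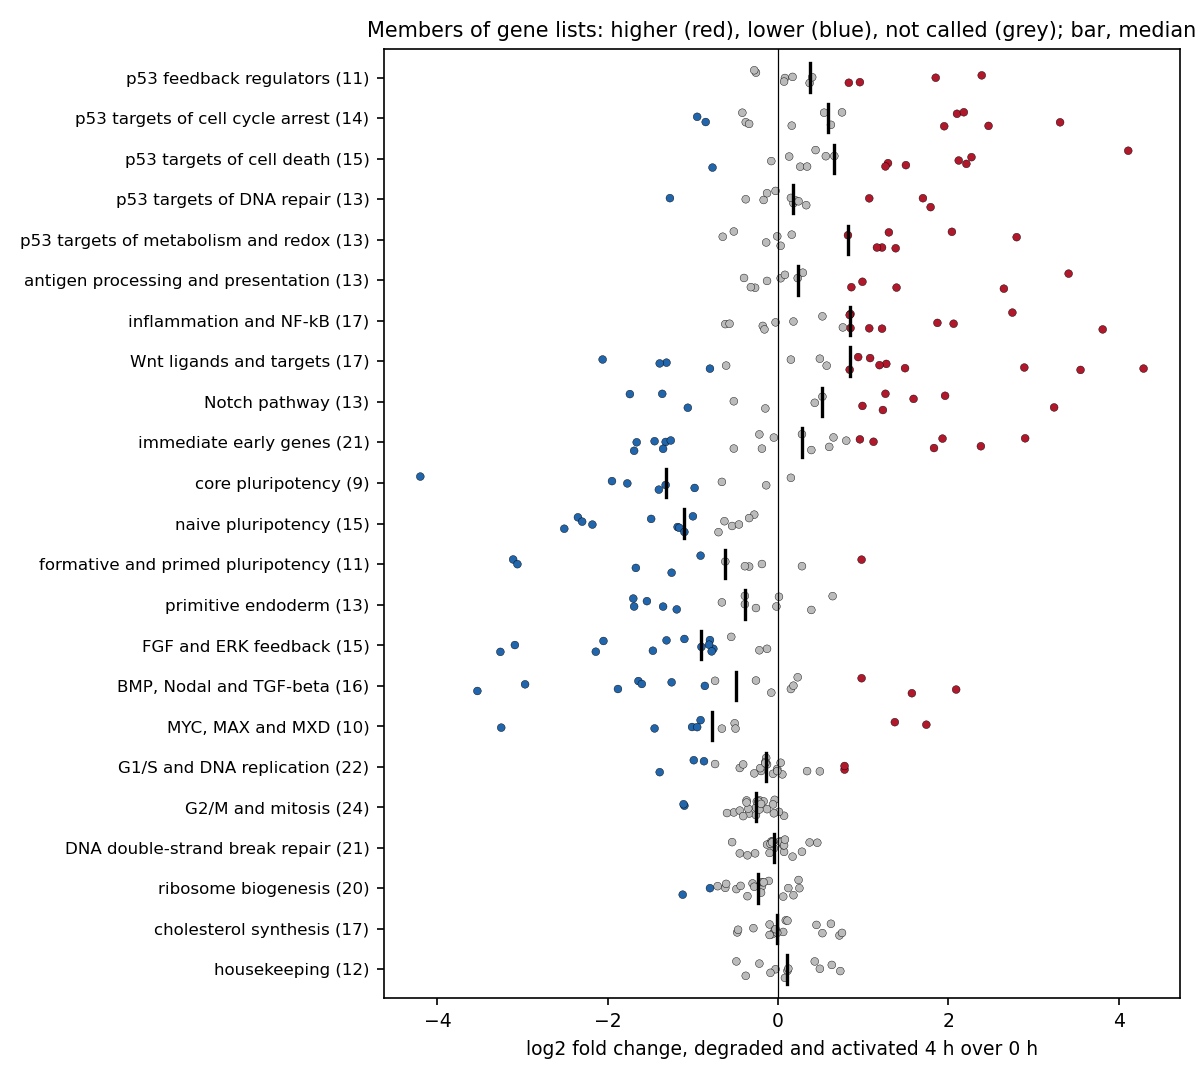
Log2 fold change of each tested member of 23 gene lists (points, number tested in brackets), degraded and activated cells at 4 h over 0 h, with genes called higher in red, lower in blue and not called in grey, and a bar at the median. The FGF and naive pluripotency lists lie left of 0 (medians -0.90 and -1.10), and the cell death and metabolic p53 lists right of it (0.66 and 0.82).

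Histone genes fell together, a set picked by name prefix after values were seen. All 59 tested were lower, with a median of -1.73, and held 5354, 4869 and 4734 CPM in degraded and activated cells against 15228, 19224 and 13524 CPM at 0 h. The groups were apart, the second 0 h library was the highest and near-identical copies can share reads. Linker histones H1f3 (143, 147 and 134 CPM against 867, 957 and 714 CPM) and H1f2 (-2.54) were among the 8 genes that lost most CPM, with Zfp42, Rif1, H1f1, Slc2a3, Sgk1 and Nanog. Sgk1, a kinase gene, fell to 95.9, 91.7 and 92.3 CPM against 618, 608 and 619.7 CPM. The 8 genes with the largest gain were Mdm2, Ccng1, Trp53inp1, Plk2, Btg2, Fat1, Mcm3ap and Slc19a2, and the first 5 are p53 target genes of the lists above. Ccng1 gained the most, with 1642, 1883 and 1698 CPM against 504, 449 and 494 CPM.

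Some of the higher genes were nearly silent at 0 h. Such genes passed the filter on low values mainly through the degraded and activated libraries, so their direction was largely fixed by it. In the other direction, 12 lower genes had at most 3 reads in each degraded and activated library. With at most 3 reads in each 0 h library, 360 of the 2223 higher genes stood at a median of 0.621 CPM in degraded and activated cells, 97 of them at 1 CPM or more and 5 at 5 CPM or more. Their summed level was 343, 357 and 354 CPM in degraded and activated libraries and 17.0, 19.1 and 18.9 CPM at 0 h. Krt15, a basal keratin, had 6.51, 6.60 and 8.39 CPM against 0.150, 0.147 and 0.117 CPM, and the B cell lectin Cd22 had 8.24, 6.23 and 6.46 CPM against 0.0997, 0.147 and 0.117 CPM. Dntt, the template-independent polymerase of lymphocytes, had 3.36, 5.60 and 4.43 CPM and no read at 0 h, at least 28.4-fold higher against a floor of 3 reads in each 0 h library.

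Other normally tissue-specific genes led by fold. Adamts2, a procollagen protease, had 43.0, 40.7 and 43.5 CPM in degraded and activated cells against 0.847, 0.932 and 0.993 CPM at 0 h (5.06, SE 0.108), and Rgcc, a cell cycle regulator induced by complement, had 17.2, 16.8 and 15.5 CPM against 0.249, 0.343 and 0.292 CPM (4.69). C1rb (4.98), the neural factor Myt1 (4.88), Rsph6a (4.88), Pou4f3 (4.83), Cbln2 (4.73), Art4 (4.44), Cyp4f39 (4.39), Arhgef33 (4.36), Tmem184a (4.27), Sbsn (4.26) and Rcsd1 (4.17) were, with Wnt9a, also among the 15 leading genes. The 1137 olfactory receptor genes, which ES cells should lack, were used as a background. Of 82 tested, 16 rose and 5 fell (median 0.25), beside 13.9% higher and 7.04% lower over all genes tested. The summed level of the olfactory receptor genes was 120.3, 128 and 151 CPM in degraded and activated libraries, highest in the third, against 74.8, 80.6 and 76.0 CPM at 0 h. The part of this background in the gains of nearly silent genes was not tested. Mitochondrial genes also took 27581 to 34125 CPM against 21915 to 24021 CPM, with 1 of 13 (mt-Nd6) called. That call was lost without the second degraded and activated library. All 13 were higher at an unadjusted p under 0.05 in limma, with a median of 0.47, and of 0.38 in activated cells with Trim24.

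Genomic span was described for the changed genes. The median genomic span was 26.1 kb for higher genes (2206 of 2223 with a known span) and 15.9 kb for lower genes (1065 of 1128), beside 23.6 kb over all tested. Of genes over 200 kb 16.9% were higher and 3.41% lower, and of genes under 5 kb 13.5% and 9.91%. The histone genes are short, and their part in this difference was not tested.

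How much of the response needs Trim24 to be gone was asked by setting activated cells with Trim24 beside degraded and activated cells. Both share the 3 libraries at 0 h. Against these, activated cells had 2039 genes higher (12.9%) and 915 lower (5.8%) of 15772 tested (1570 and 1366 with quantile normalization). The direct difference between the treated groups was far smaller, with 162 genes higher in degraded and activated cells (1.0%) and 24 lower (0.149%) of 16138. For 3 p53 targets the values lay close together: Mdm2 at 921, 994 and 941 CPM in degraded and activated cells against 929.6, 980.1 and 989 CPM in activated cells (difference -0.02, SE 0.0419), Plk2 0.01 (SE 0.0414) and Apaf1 -0.03 (SE 0.0441). Of 66 genes of the feedback, arrest, death, repair and metabolic p53 lists none was called by limma between the treated groups, in the time course or in the second experiment, and 10 higher and 19 lower had an unadjusted p under 0.05 in the time course, and 18 higher and 12 lower in the second experiment. Cdkn1a stood above its level in activated cells in both experiments, under the fold threshold. It had 93.0, 80.7 and 89.2 CPM against 75, 77.6 and 75.1 CPM in activated cells of the time course (0.20, SE 0.0576). In the second experiment it had 72.1, 79.5, 78.3 and 69.9 CPM against 46.5, 44.5, 50.3 and 48.6 CPM (0.65, SE 0.0572), with no overlap in either.

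Ptgs2 rose in degraded and activated cells and was not called in activated cells. It had 39.0, 39.0 and 38.0 CPM in degraded and activated cells but 3.57, 4.31 and 3.82 CPM in activated cells with Trim24, and 2.59, 2.70 and 2.04 CPM at 0 h, a difference of 3.20 (SE 0.0926) between treated groups. Rgcc had 17.2, 16.8 and 15.5 CPM against 3.14, 2.87 and 2.68 CPM in activated cells (2.38, SE 0.111). Tnfaip3, the A20 inhibitor of NF-kB, had 5.25, 5.49 and 6.08 CPM against 2.85, 2.64 and 2.57 CPM (0.97, SE 0.134). On the lower side, Myc stood at 25.6, 25.7 and 28.1 CPM against 55.7, 53 and 51.3 CPM (-1.0, SE 0.0661) and Spry4 at 18.1, 14.8 and 16.6 CPM against 34.2, 31.4 and 35.6 CPM (-1.02, SE 0.0814). Nanog, with 140.5, 140.1 and 134 CPM against 192, 198 and 189.6 CPM, differed by -0.48 (SE 0.0478), under the fold threshold.

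**Figure D4:**
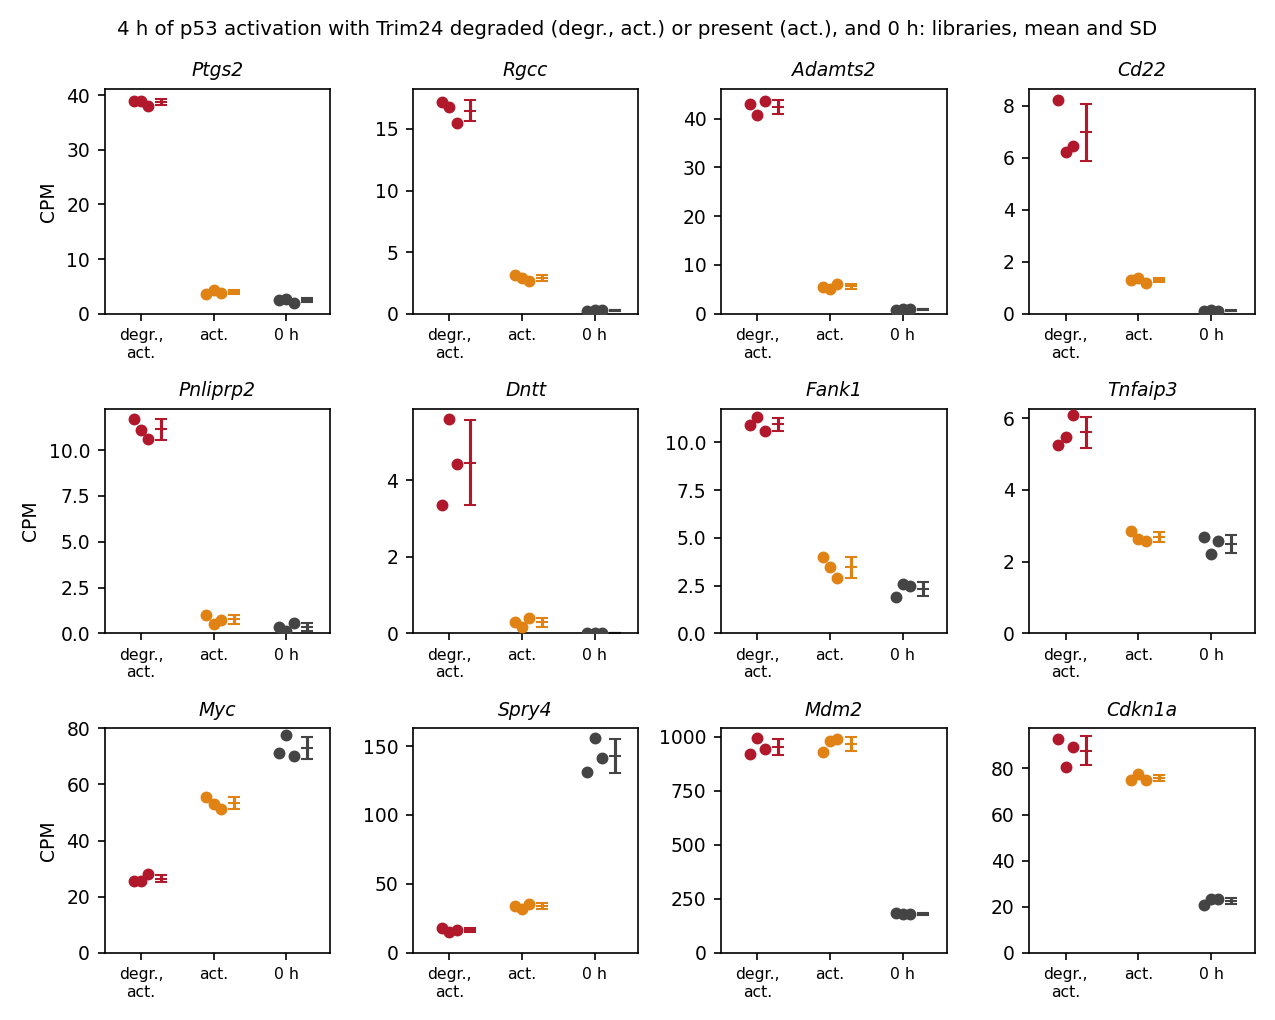
Level of 12 genes (CPM, axis from 0) in degraded and activated cells, in activated cells with Trim24 and at 0 h, with 1 point for each library and the mean with 1 SD beside them. Ptgs2 lay at 38.0 to 39.0 CPM only in degraded and activated cells, whereas Mdm2 was as high in activated cells (929.6 to 989 CPM).

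Genes called against 0 h in degraded and activated cells, not called in activated cells and called between the treated groups numbered 70 higher and 8 lower. Most were low: the median of the 70 was 1.84 CPM in degraded and activated cells, 0.687 CPM in activated cells and 0.407 CPM at 0 h. The lipase Pnliprp2 had 11.7, 11.1 and 10.6 CPM in degraded and activated cells against 1.01, 0.517 and 0.742 CPM in activated cells, and had the largest fold change of the 70 against 0 h (4.04), ahead of Ptgs2. Fank1, a testis gene, had 10.9, 11.3 and 10.6 CPM against 4.01, 3.45 and 2.91 CPM. Olfr1188, Gjb2, Adam12, Gjd4, Mep1a, Ranbp3l and Ndnf had means between 1.14 and 1.85 CPM in degraded and activated cells. The 8 lower genes included Myc, Snai1, Cldn3 and the histone genes Hist1h2ao and H2ac6. The second experiment, separate libraries of the same line, had 165 genes higher (1.01%) and 22 lower (0.135%) of 16313 between these treatments. There 39 of the 70 were called higher and 69 lay above 0 (median 0.88), and 1 of the 8, Myc, was called lower with all 8 below 0 (median -0.38). Ptgs2 had 33.8, 29.6, 32.7 and 30.5 CPM in degraded and activated libraries there, against 2.12, 3.36, 2.08 and 2.87 CPM in activated ones. Summed olfactory receptor levels in that experiment were 79.1 to 109.8 CPM in degraded and activated libraries and 97.3 to 191 CPM in activated libraries.

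Along the time course of the combined treatment, 4 h was an intermediate point. The 2223 genes chosen as higher at 4 h had a median log2 change against 0 h of 0.54 at 2 h, 1.27 at 4 h, 2.21 at 8 h and 2.31 at 12 h, and the 1128 lower genes -0.41, -1.03, -1.54 and -1.56. The choice at 4 h fixes the value there. From 2 to 4 h, 1204 genes were higher at 4 h (7.5%) and 402 lower (2.5%) of 16064, and from 4 to 8 h, 2644 were higher at 8 h (15.5%) and 1444 lower (8.46%) of 17074. With quantile normalization the counts were 865 and 568 from 2 to 4 h, and 1695 and 1516 from 4 to 8 h. With the libraries centred on their medians the counts from 4 to 8 h were 2009 and 2153, with a shift of -0.12 in the median of all genes. The excess of gains over losses from 4 to 8 h was thus smaller with quantile normalization and reversed with median centring. Which scaling is right was not tested.

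Nanog averaged 359 ± 16.1 CPM at 2 h, 138 ± 3.37 at 4 h, 16.7 ± 1.11 at 8 h and 8.77 ± 0.576 at 12 h (SD, n = 3 each). Mdm2 was highest at 4 h, with 647 ± 36.3, 952 ± 38.0, 736 ± 26.2 and 729.8 ± 11.1 CPM in the same order, and Cdkn1a was already at 83.8 ± 2.93 CPM at 2 h. Ptgs2 was still climbing, to 177 ± 8.40 CPM at 12 h. Of the 2223 genes higher at 4 h, 1215 were higher again at 8 h and 12 were lower. Fank1 rose the most, to 120.3 ± 7.88 CPM at 8 h against 10.9 ± 0.349 at 4 h (3.42, SE 0.0860), followed by Matn4, AW822073, Duxf3 and Kif17. The largest falls were Muc15, Rdh16, the free fatty acid receptor genes Ffar1 (1.6 ± 0.625 CPM at 8 h against 3.75 ± 0.989 CPM at 4 h) and Ffar3, and Prr22, all low genes.

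**Figure D5:**
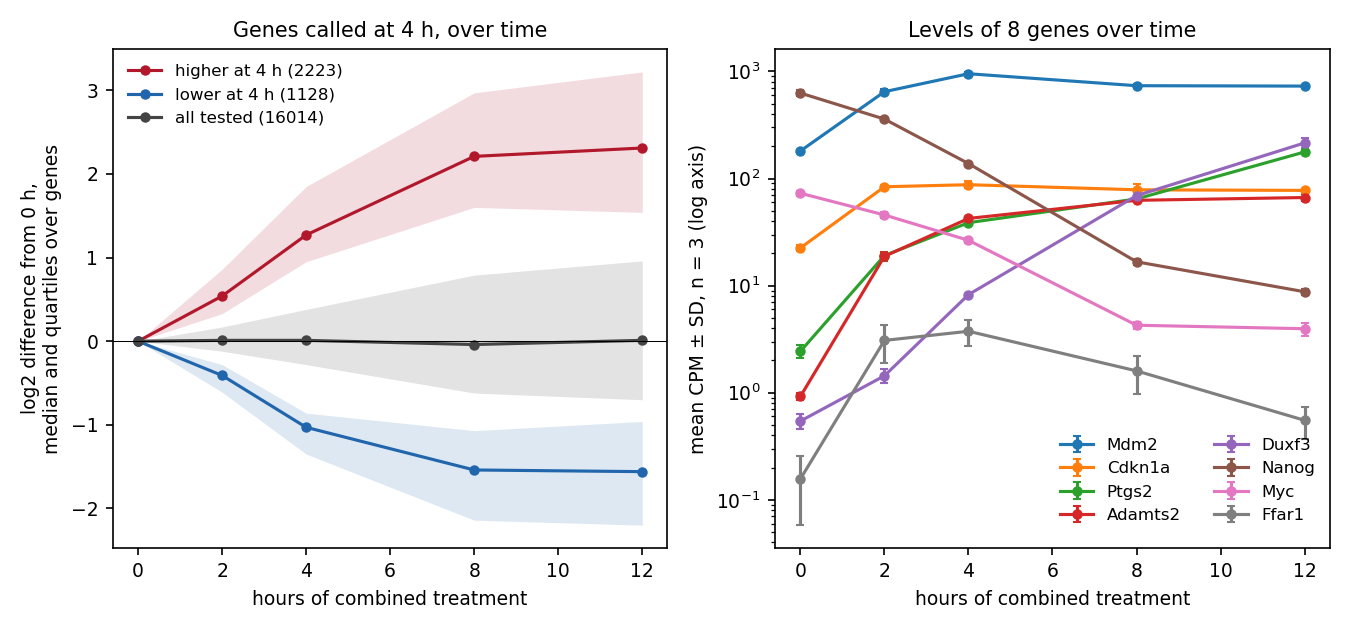
On the left, the median and quartiles over genes of the log2 difference from 0 h against hours of combined treatment, for genes higher at 4 h, lower at 4 h and all tested. On the right, the mean level of 8 genes with 1 SD (CPM, log axis, n = 3), where Mdm2 was highest at 4 h (952 CPM) and Nanog reached 8.77 CPM at 12 h.

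Wild-type ES cells, sequenced as a separate experiment, gave 1315 genes higher (7.99%) and 373 lower (2.27%) of 16448 on activation (897 and 569 with quantile normalization). The wild-type labels give no time. Of the 2152 higher genes that were tested there 1161 were called higher (53.9%), none lower, with a median of 0.80, and of 1127 lower genes 332 were called lower (29.5%), with a median of -0.57. The shared genes were 52.2% of the genes higher in degraded and activated cells and 88.3% of those higher in wild type, and 29.4% and 89.0% of the lower ones. Without the first activated wild-type library that experiment had 676 calls in all in place of 1688. Ptgs2 averaged 4.26 CPM in activated and 5.34 CPM in untreated wild-type cells, and was not called, whereas Mdm2 averaged 910.3 and 250.3 CPM.

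Degradation of Trim24 without activation changed 12 genes (0.0781%) of 15360, all higher in degraded cells. The untreated libraries there carry the title of untreated cells but a second label of activated p53, and were grouped by title. Mdm2 stood at 171 to 178 CPM in the degraded and 178 to 189 CPM in the untreated libraries. Of these, 10 were also higher in degraded and activated cells, among them Adamts2, Bfsp2, Rgcc, Rsph6a, Pnliprp2, Tmem45b, Arhgef33, Pou4f3 and Tmem184a. Tlr2 and Fgfbp1 were the others, with log2 fold changes of -0.52 and -0.43 in degraded and activated cells, neither called. Adamts2 averaged 3.36 CPM in degraded and 0.595 CPM in untreated uninduced cells, and Ptgs2 3.88 and 3.26 CPM, with no call (0.24). Over the 2223 higher and 1128 lower genes the medians of that comparison were 0.02 and -0.03. Limma without its trend and robust options called none of the 15360 genes there.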

How the data were processed

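RNA was sequenced from mES cells with a stranded total RNA kit. Per the labels and methods, bcl2fastq (2.17 or 2.20) served for demultiplexing, STAR for alignment to mm10 and featureCounts for counting over protein-coding genes of GENCODE. A read with several matches was placed at 1 of them at random, and genes named Gm are not in the tables. With edgeR the authors scaled libraries by TMM. The deposited values are log2 CPM, made after 8 reads were added as a prior.

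Reads were recovered from these log2 values (100% whole within 0.01), and CPM and sums were computed from them. Groups were taken from the labels and compared with limma 3.58.1 in R 4.3.3 (lmFit, eBayes with trend and robust) on the deposited log2 CPM, each comparison within 1 table, with Benjamini-Hochberg adjustment over all genes tested. Genes entered a test when enough libraries to fill the smaller group exceeded the table's floor by 0.5. A call required both a change of 0.75 or more on the log2 scale and an adjusted p below 0.01. The procedure was tested on simulated data. Counting error limits genes under 1 CPM, since 3 reads are 0.141 to 0.175 CPM in the 6 libraries. Alternatives were limma-voom on reads, a prior count of 2, quantile normalization, median centring, other filters, no trend, a replicate block, all libraries in the fit and leaving out each library. A filter at 1 CPM and the second experiment were added after seeing the data. No column was left unused.

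Named genes were Trim24, Trp53, Mdm2, Cdkn1a, Ptgs2, Rgcc and Tnfaip3, the 15 highest and 10 lowest fold changes without overlap of groups, the 8 largest gains and losses of CPM, the 6 highest of the genes with at most 3 reads in each 0 h library, the 10 highest and 5 lowest of those called only without Trim24, up to 4 members of each gene list by size of change, 5 with a p53 element, and the 5 that rose or fell most to 8 h. Other list members were named after their values were seen. The members and lists were chosen with earlier results of these data known. A list of replication-dependent histones matched no name in the table, so histone genes were taken by prefix. Promoters came from the RefSeq table for GRCm38.p6. Results for a few genes are not reported here.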

Additional observations from a re-analysis of the deposited data

Results flagged for a closer look

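Of the genes named here, 38 differed between degraded and activated cells and activated cells with Trim24 at 4 h, by a limma test of that difference (adjusted p under 0.01 and at least 0.75 on the log2 scale), 28 higher and 10 lower in degraded and activated cells.

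Among inflammation, signaling and stress genes the log2 differences were 3.20 for Ptgs2, 2.38 for Rgcc, 0.97 for Tnfaip3, 0.93 for the T cell ligand Tnfsf4, 0.77 for the Wnt receptor Fzd1, 0.88 for the Notch ligand Dll1 and 1.13 for the lipoprotein receptor Vldlr. Among the genes with the largest change against 0 h they were 2.84 for Adamts2, 1.82 for C1rb, 1.17 for Rsph6a, 1.32 for Cyp4f39, 0.91 for Arhgef33, 1.39 for Tmem184a and 1.54 for Rcsd1. Genes low at 0 h gave 2.14 for Cd22, 1.80 for Bfsp2, 2.89 for Dntt, 3.39 for Pnliprp2, 2.36 for Olfr1188, 1.72 for Gjb2, 1.46 for Adam12, 1.57 for Fank1, 1.20 for Gjd4, 1.64 for Mep1a, 1.23 for Ranbp3l, 1.36 for Ndnf, 1.92 for Ffar1 and 2.00 for Ffar3. Where a group has no or few reads, as for Dntt, Olfr1188 and Gjd4, the fitted difference depends on the prior count.

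The lower genes were Fgf15 (-1.02), Spry4 (-1.02), Myc (-1.0), Mycn (-0.75), the BMP target Id1 (-0.81), Snai1 (-0.80), the claudin Cldn3 (-1.12), Gcm1 (-1.08) and the histone genes Hist1h2ao (-1.10) and H2ac6 (-0.92). Gcm1 was higher than at 0 h in both treated groups and lower in degraded and activated than in activated cells, with 2.41, 2.90 and 2.40 CPM against 5.60, 6.09 and 5.82 CPM.

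Of 8 groups of 4 libraries checked in the second experiment, 1 held a library far from the others: Rgcc stood at 1.77 CPM in the third activated library, against 0.702 to 0.879 CPM in the rest. Chance marks about 1 in 20 such groups.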

How the results depend on the processing

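Depth limits genes under 1 CPM, and fold changes of such genes depend on the prior count. The degraded and activated comparison gave 2175 to 2265 higher and 1101 to 1177 lower genes when single libraries were left out (3305 to 3398 in all), 2398 and 1212 with limma-voom on reads, and 1819 and 1091 for genes at 1 CPM or more. Of 199 named genes 163 were called, 13 lost the call under some alternative and 8 gained it, and Tcstv1, not called, turned to -0.08 with quantile normalization. Of the counts over gene lists 42 moved by over 1.5 times and 1206 did not. Causes were not tested.

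Without a fold threshold and at an adjusted p of 0.05 the counts were 9889 against 0 h, 9423 for activated cells with Trim24 against 0 h, 1848 between the treated groups, 7034 from 2 to 4 h, 11456 from 4 to 8 h, 5927 in wild type and 56 on degradation alone. The 186 calls between the treated groups fell to 116 without a filter and 90 without trend and robust, and the 12 on degradation alone to 0 under both, against 10 with limma-voom. Leaving out single libraries gave 676 to 1506 calls in wild type, the lowest without the first activated library. Promoters with the p53 element among higher genes were 4 at 1 mismatch and 55 at 3.

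Same-numbered libraries did not deviate together in the main comparison (correlations of -0.130 to -0.023), so the numbers do not pair them there. Between the treated groups the correlations were 0.012 to 0.101 for the same number and -0.084 to 0.021 for different numbers. From 2 to 4 h they were 0.02 to 0.143 and -0.137 to 0.102. Pairing in those comparisons was not tested. With a replicate block the counts were 2229 higher and 1132 lower (3361), 2943 for activated cells against 0 h, 202 between the treated groups, 1582 from 2 to 4 h, 4086 from 4 to 8 h, 1672 in wild type and 17 on degradation alone.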
